A study of Mus musculus with 32 samples.

Results

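Creatine and calcium futile cycling genes were followed in brown adipose tissue of mice lacking the transcription factor ChREBP or its β isoform. The set held 9 genes (Gatm, Gamt, Slc6a8, Ckb, Ckmt1, Ckmt2, Alpl, Atp2a2 and Ryr2) of 24523 gene names measured, read by 17 of the 18 array probes that carry these names. The whole data set held 37306 probes. Probes were chosen by measured detection values: a probe entered when it passed the detection filter, described with the processing, and all 9 genes had such a probe. Each gene is described by its brightest probe, with the other probes given where they differ.

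Messenger RNA was measured on 32 arrays, with 8 arrays in each of 4 groups of C57BL6/J male mice. Total ChREBP KO mice are Mlxipl-null and lack both isoforms, whereas ChREBPβ KO mice carry a deletion of the exon specific to the β isoform, made by gene editing in embryos, and keep the α isoform. Each line had its own WT littermates as controls, named here total-line WT and ChREBPβ-line WT. All mice, WT included, went without food for 24 hours and then had food and drinking water with 20% glucose for 18 hours. Both deletions are present in the whole body, and neither age nor which of the edited C57BL6/J lines was arrayed is given in the sources used here. Since tissue was measured in bulk, fewer cells of a type and less RNA per cell cannot be told apart.

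Creatine futile cycling spends ATP on phosphorylating creatine and then frees the phosphate again, so that energy leaves as heat without uncoupling protein. Creatine is made by Gatm and Gamt, taken up by Slc6a8, phosphorylated by creatine kinases (Ckb, Ckmt1, Ckmt2), and phosphocreatine can be hydrolysed by the alkaline phosphatase Alpl. Calcium futile cycling spends ATP on pumping calcium into the endoplasmic reticulum through SERCA2 (Atp2a2) while the ryanodine receptor Ryr2 lets it out again. Both cycles have been described in thermogenic fat, and Ckmt2, Atp2a2 and Ryr2 are also well known from striated or cardiac muscle.

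The probe sequences show what was measured. The 7 below are those for which probes of a gene disagreed or which carried the values described most fully. They are the 60-base probes of the array files, in lower case since no part is singled out, with positions as the array files give them on mouse build mm9 and the exon or UTR they fall in not annotated in the sources used here. Ckb was read at chr12:112907787-112907846 (brightest probe) and chr12:112908459-112909105, Slc6a8 at chrX:70925849-70925908, Alpl at chr4:137309921-137311022, Ckmt2 at chr13:91993242-91995390, Atp2a2 at chr5:122910660-122910719 and Ryr2 at chr13:11792652-11793104, with Slc6a8 on the plus and the others on the minus strand. Where the stretch is longer than 60 bases (the other Ckb probe, Alpl, Ckmt2 and Ryr2) the probe sequence is split over separate genomic pieces.
Ckb, brightest probe: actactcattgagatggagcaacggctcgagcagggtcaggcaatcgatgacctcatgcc
Ckb, other probe: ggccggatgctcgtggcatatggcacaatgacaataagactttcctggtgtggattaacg
Slc6a8, other probe: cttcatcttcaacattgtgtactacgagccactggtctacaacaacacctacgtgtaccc
Alpl, other probe: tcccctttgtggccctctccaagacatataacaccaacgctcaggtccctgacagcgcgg
Ckmt2: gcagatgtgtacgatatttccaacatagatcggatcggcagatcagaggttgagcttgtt
Atp2a2, second other probe: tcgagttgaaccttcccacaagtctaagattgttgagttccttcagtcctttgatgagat
Ryr2, brightest probe: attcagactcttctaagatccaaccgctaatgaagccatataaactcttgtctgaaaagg

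In total ChREBP KO the members changed together with much of the array, while ChREBPβ KO moved few of them. Total ChREBP KO and its WT differed for 7 of the 9 (5 higher, 2 lower, limma adjusted p under 0.05), where 44.1% of all 24523 genes passed, 22.9% higher and 21.1% lower. The 8 KO and 8 WT arrays did not overlap for 5 members, against 16.6% of all genes. In ChREBPβ KO 1 of the 8 members other than Ryr2 was called (Ckb, higher), where 2.7% of all genes were called, 1.37% higher and 1.33% lower, and KO and WT overlapped for all 8, where 0.432% of all genes did not overlap. Ryr2, whose rise in ChREBPβ KO was known when the set was made, is described apart. The authors list it as raised in both knockouts, so the counts of 7 and 5 in total ChREBP KO include a known change. The KO effects differed between the lines for 4 of the same 8 members (Alpl higher and Gamt, Ckb and Atp2a2 lower in ChREBPβ KO relative to total ChREBP KO), against 25.2% of all genes, 12.2% higher and 13% lower. Between the 2 WT groups 3 of the 8 members other than Ckmt2 were called (Gamt and Ryr2 higher and Slc6a8 lower in the ChREBPβ line), against 38.9% of all genes, 24.8% higher and 14.1% lower. Of these 2 groups Ryr2 passed the detection filter in ChREBPβ-line WT only, so its call is a description. Ckmt2 was kept through the total-line groups alone, so it had to differ and is described apart. The median log2 difference over all members, Ryr2 included, was 0.20 in total ChREBP KO and 0.15 in ChREBPβ KO. The medians over all genes were 0.01 and -0.00301. With Ryr2 known beforehand, the members' medians are descriptions.

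**Figure D1:**
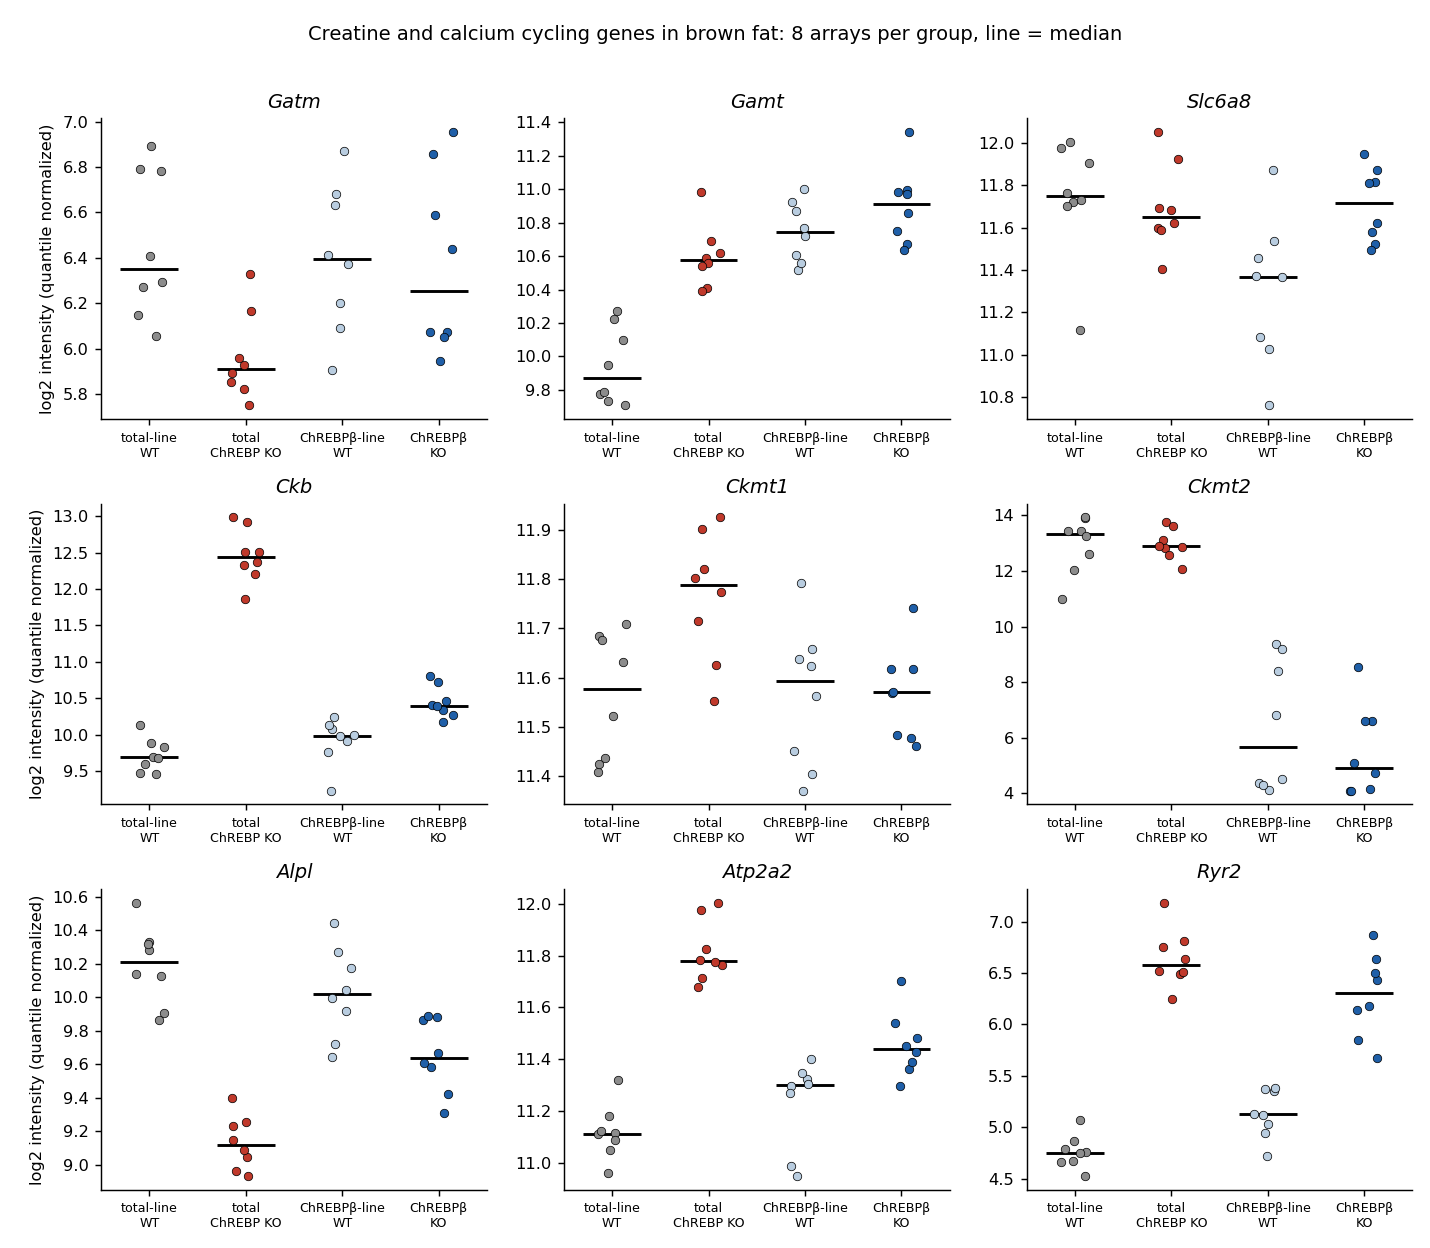
Quantile normalized log2 intensity (y axis) of the brightest probe of each gene on the 8 arrays of each group (x axis); points are arrays and lines are medians, and each panel has its own scale. Ckb, Gamt, Atp2a2 and Ryr2 lie higher and Alpl lower in total ChREBP KO than in its WT with no overlap, and Ckmt2 separates the mouse lines.

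Creatine synthesis genes moved in opposite directions in total ChREBP KO. Gamt, the methyltransferase that completes creatine, had log2 intensities of 9.71 to 10.27 (median 9.87) in total-line WT, 10.39 to 10.98 (median 10.58) in total ChREBP KO, 10.52 to 11.002 (median 10.74) in ChREBPβ-line WT and 10.64 to 11.34 (median 10.91) in ChREBPβ KO. Total-line WT stood below the other groups without overlap, and the other groups overlapped. Gamt rose by 0.65 ± 0.10 (log2, SE, n = 8 per group, limma adjusted p 2.52e-06) in total ChREBP KO, and was 0.80 ± 0.10 higher in ChREBPβ-line WT than in total-line WT (limma adjusted p 1.61e-07). In ChREBPβ KO it differed from its WT by 0.15 (95% interval -0.0493 to 0.36, limma adjusted p 0.557), and the effects of the knockouts differed by -0.50 ± 0.14 (limma adjusted p 0.0091), a difference not called with the slide as a fixed block (-0.43, limma adjusted p 0.0852). From the highest level, the order was ChREBPβ KO, ChREBPβ-line WT, total ChREBP KO and total-line WT, and only the last step passed the test. The levels of Gamt ran most like Tnks1bp1 (r = 0.858), Aoc3 (r = 0.845) and Adgre5 (r = 0.839), over 32 arrays.

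Gatm, the amidinotransferase of the first step, fell in total ChREBP KO. It lay at 6.06 to 6.89 (median 6.35) in total-line WT, 5.75 to 6.33 (median 5.91) in total ChREBP KO, 5.91 to 6.87 (median 6.39) in ChREBPβ-line WT and 5.95 to 6.95 (median 6.25) in ChREBPβ KO. All groups overlapped. The probe was well above background on all 32 arrays but marked as found on 23, and entered through the groups other than ChREBPβ KO. The difference was -0.49 ± 0.15 (log2, SE, limma adjusted p 0.00845) in total ChREBP KO, with all 8 KO arrays below the WT mean, and -0.02 ± 0.15 in ChREBPβ KO (95% interval -0.33 to 0.28). The other Gatm probe gave -0.33 ± 0.13 for total ChREBP KO (limma adjusted p 0.0301). The fall in total ChREBP KO was not called with the slide as a fixed block (-0.34, limma adjusted p 0.185). Over 32 arrays Gatm ran closely with Plekha4 (r = 0.857) and Cadm4 (r = 0.819).

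Slc6a8, the creatine transporter, gave different answers by probe in total ChREBP KO. By its brightest probe it lay at 11.12 to 12.01 (median 11.75) in total-line WT, 11.40 to 12.05 (median 11.65) in total ChREBP KO, 10.76 to 11.87 (median 11.37) in ChREBPβ-line WT and 11.50 to 11.95 (median 11.72) in ChREBPβ KO, and all groups overlapped. Total ChREBP KO differed from its WT by -0.04 ± 0.12 (log2, SE, 95% interval -0.30 to 0.21). The other probe, whose sequence is printed above, lay at 8.14 to 8.98 (median 8.74) in total-line WT, 8.66 to 9.48 (median 9.15) in total ChREBP KO, 7.87 to 8.86 (median 8.29) in ChREBPβ-line WT and 8.53 to 9.08 (median 8.77) in ChREBPβ KO, again with overlap. It rose in total ChREBP KO by 0.45 ± 0.13 (limma adjusted p 0.00551), with all 8 KO arrays above the WT mean.

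In ChREBPβ KO the Slc6a8 probes gave similar values. They were 0.40 ± 0.12 (limma adjusted p 0.0826) for the brightest probe and 0.50 ± 0.13 (limma adjusted p 0.0345) for the other, and by both all 8 KO values exceeded the mean of WT. The brightest probe gave 0.22 (limma adjusted p 0.547) with the slide as a fixed block. It passed the test with the muscle list mean described below fitted in each line (0.41, limma adjusted p 0.0338, chosen after seeing the data) and when total-line WT replicate 8 (limma adjusted p 0.0464) or ChREBPβ-line WT replicate 5 (limma adjusted p 0.0147) was left out. The effects of the knockouts differed by 0.44 ± 0.18 for the brightest probe (limma adjusted p 0.0639, and 0.014 without total-line WT replicate 8) and by 0.04 ± 0.19 for the other. ChREBPβ-line WT stood 0.43 ± 0.12 below total-line WT by the brightest probe (limma adjusted p 0.00615) and 0.31 ± 0.13 below by the other (limma adjusted p 0.0592). With the muscle mean as a single covariate, the first of these was -0.16 ± 0.20 (limma adjusted p 0.659). However, the muscle means of the lines do not overlap. The slope of this probe on the muscle mean was not called (0.04 ± 0.03, limma adjusted p 0.736). Fitted per line, a choice made after seeing the data, it was 0.25 ± 0.08 in the total line (limma adjusted p 0.0844). In the ChREBPβ line it was 0.02 ± 0.02 (limma adjusted p 0.906). Muscle as a source of the difference between the WT groups was not tested. Across the 32 arrays Slc6a8 ran most like Svil (r = 0.815), Zfand5 (r = 0.797) and Aimp2 (r = 0.786).

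Ckb, the cytosolic brain-type creatine kinase, rose in both knockouts. It lay at 9.46 to 10.13 (median 9.69) in total-line WT, 11.86 to 12.98 (median 12.44) in total ChREBP KO, 9.23 to 10.25 (median 9.99) in ChREBPβ-line WT and 10.17 to 10.81 (median 10.40) in ChREBPβ KO. Total ChREBP KO lay above all other arrays, and the ChREBPβ groups overlapped at their edges. Ckb rose 6.68-fold in total ChREBP KO (log2 difference 2.74 ± 0.14, SE, limma adjusted p 6.08e-17), and the other probe rose 5.90-fold (2.56 ± 0.12, limma adjusted p 1.48e-17). In the 4 wash batches, each holding 1 to 3 arrays of every group, the difference ran from 2.47 to 2.98 (lowest and highest batch).

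In ChREBPβ KO the rise of Ckb was smaller. The increase was 1.44-fold (log2 0.53 ± 0.14, limma adjusted p 0.0302) by the brightest probe and 1.38-fold (0.46 ± 0.12, limma adjusted p 0.033) by the other, with all 8 KO arrays above the WT mean and wash batches from 0.19 to 0.70. The 0.70 came from a batch with 1 ChREBPβ KO array. The ChREBPβ KO effect minus the total ChREBP KO effect was -2.21 ± 0.19 (limma adjusted p 2.13e-10). The increase in ChREBPβ KO stood near the threshold: it was not called without ChREBPβ-line WT replicate 6 (limma adjusted p 0.0804), ChREBPβ-line WT replicate 8 (0.0615), ChREBPβ KO replicate 1 (0.0628) or ChREBPβ KO replicate 4 (0.072). In order, total ChREBP KO was above ChREBPβ KO and this above ChREBPβ-line WT, with both steps called, while the step from ChREBPβ-line WT to total-line WT was not (limma adjusted p 0.273). Over all 32 arrays Ube2o (r = 0.965), Rab3ip (r = 0.962) and Magel2 (r = 0.961) ran most like Ckb. These values include the differences between groups. Over deviations from the group means the highest were Pomk (r = 0.821), Tbcd (r = 0.811) and Olfr297 (r = 0.801).

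Ckmt1, the ubiquitous mitochondrial creatine kinase, moved little by its brightest probe. It lay at 11.41 to 11.71 (median 11.58) in total-line WT, 11.55 to 11.93 (median 11.79) in total ChREBP KO, 11.37 to 11.79 (median 11.59) in ChREBPβ-line WT and 11.46 to 11.74 (median 11.57) in ChREBPβ KO, and all groups overlapped. The rise in total ChREBP KO was 0.20 ± 0.06 (log2, SE, limma adjusted p 0.0101), with 7 of 8 KO values over the mean of WT. It was not called on the processed signal scaled to the 75th percentile (0.15, limma adjusted p 0.0888) or on the median signal scaled that way (0.14, limma adjusted p 0.0679). In ChREBPβ KO the difference was 0.00496 ± 0.06. Medians of the other Ckmt1 probe were 4.70 in total-line WT, 4.92 in total ChREBP KO, 4.79 in ChREBPβ-line WT and 4.68 in ChREBPβ KO. It was well above background on 15 of 32 arrays, entered through total ChREBP KO alone and differed by 0.12 ± 0.28 in total ChREBP KO. The array files give both probes the same RefSeq transcript and overlapping positions. Which of these levels is that of Ckmt1 was not tested. By its brightest probe Ckmt1 ran over 32 arrays most like Dlec1 (r = 0.876), Zfp609 (r = 0.867) and Olfr553 (r = 0.861).

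Ckmt2, the sarcomeric mitochondrial creatine kinase, divided the arrays by mouse line. It lay at 10.98 to 13.92 (median 13.34) in total-line WT, 12.09 to 13.78 (median 12.90) in total ChREBP KO, 4.10 to 9.38 (median 5.66) in ChREBPβ-line WT and 4.09 to 8.55 (median 4.91) in ChREBPβ KO. The lines did not overlap, and within a line KO and WT did. The probe was well above background on all 16 arrays of the total line but on 4 of 8 ChREBPβ-line WT and 5 of 8 ChREBPβ KO arrays, and it entered through the total-line groups alone, so a difference between lines was built into its detection. As a description, ChREBPβ-line WT was 6.56 below total-line WT (log2, 95% interval -8.04 to -5.09), and the alternatives ran from -8.30 on the processed signal to -1.48 with muscle and liver list means as covariates. KO differed from WT by 0.02 (95% interval -1.45 to 1.497) in the total line and by -0.89 (95% interval -2.37 to 0.58) in the ChREBPβ line.

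Skeletal muscle markers followed the same division. The mean log2 intensity over 10 muscle genes (Acta1, Mylpf, Tnnt3, Tnnc2, Tnni2, Myh1, Myh2, Myh4, Myl1 and Actn3) was 13.58 to 16.57 in total-line WT, 14.86 to 16.34 in total ChREBP KO, 6.46 to 12.67 in ChREBPβ-line WT and 6.52 to 12.07 in ChREBPβ KO. All 10 were well above background on all total-line arrays, and on all 8 arrays for 6 of them in ChREBPβ-line WT and 7 in ChREBPβ KO; none was at background on all arrays of a group. The 2 WT groups differed by -6.13. Higher muscle RNA in the total line was known from earlier results of these data, so this difference is a description without a test. Within a line KO and WT gave exact permutation p 0.954 and 0.583. Within groups Ckmt2 rose by 0.83 ± 0.04 with this mean (log2 per log2, SE, limma adjusted p 1.11e-15), where 0.673% of all genes had a called slope. Fitted in each line, a choice made after seeing the data, the slope was 1.04 ± 0.14 in the total line and 0.81 ± 0.04 in the ChREBPβ line. With the mean as a covariate the WT lines differed in Ckmt2 by -1.49 ± 0.33, although the muscle means of the lines do not overlap. Over all 32 arrays Myot (r = 0.998), Acta1 (r = 0.997) and Apobec2 (r = 0.997) ran most like Ckmt2.

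**Figure D2:**
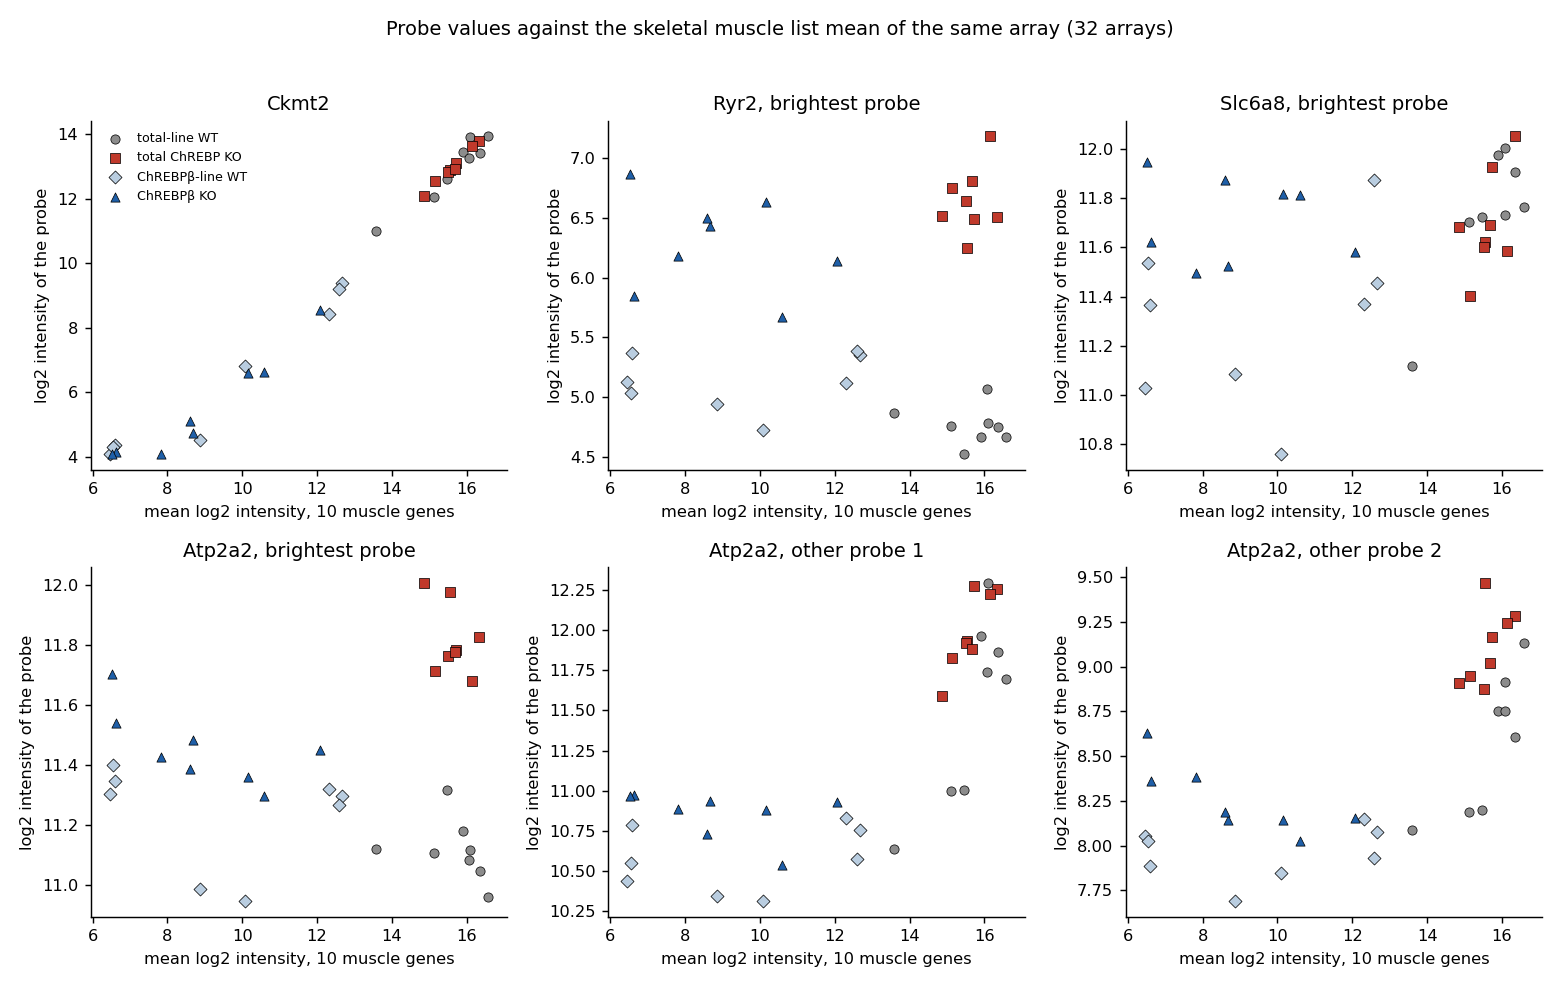
Log2 intensity of Ckmt2, Ryr2, Slc6a8 and the 3 Atp2a2 probes (y axes) against the mean log2 intensity of 10 skeletal muscle genes on the same array (x axes); each of the 32 points is 1 array and symbols mark the 4 groups. Ckmt2 runs along the muscle mean over all arrays, the 2 other Atp2a2 probes do so among total-line arrays, and the brightest Atp2a2 and Ryr2 probes do not.

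Alpl, tissue-nonspecific alkaline phosphatase, fell in total ChREBP KO. It lay at 9.87 to 10.56 (median 10.21) in total-line WT, 8.93 to 9.40 (median 9.12) in total ChREBP KO, 9.65 to 10.44 (median 10.02) in ChREBPβ-line WT and 9.31 to 9.89 (median 9.64) in ChREBPβ KO. Total ChREBP KO lay below both WT groups without overlap and overlapped ChREBPβ KO. The fall was to 0.480 of the WT level (log2 -1.06 ± 0.11, SE, limma adjusted p 1.21e-09), and ran from -1.35 to -0.86 over the 4 wash batches. In ChREBPβ KO the difference was -0.37 ± 0.11 (limma adjusted p 0.0564), with all 8 KO arrays below the WT mean, and the effects of the knockouts differed by 0.68 ± 0.15 (limma adjusted p 0.00107).

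The other Alpl probe, printed above, showed a smaller fall. It lay at 6.40 to 6.86 in total-line WT and 6.15 to 6.70 in total ChREBP KO, so the groups overlapped, with a difference of -0.18 ± 0.07 (log2, SE, limma adjusted p 0.041). In ChREBPβ KO it differed by -0.04 ± 0.07. The array files give it another RefSeq transcript than the brightest probe. The brightest Alpl probe was well above background on all 32 arrays but was marked as found on only some arrays, and it entered through the ChREBPβ groups. The value in ChREBPβ KO passed the test in 6 of 32 fits with 1 array left out, which were those without total-line WT replicate 6, ChREBPβ-line WT replicates 5 and 7 and ChREBPβ KO replicates 3, 5 and 6 (limma adjusted p 0.0195 to 0.0482). Over all 32 arrays Tmie (r = 0.941), Fah (r = 0.936) and Ctnna1 (r = 0.929) ran most like Alpl.

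Atp2a2, the SERCA2 calcium pump, rose in total ChREBP KO by all 3 probes. By the brightest it lay at 10.96 to 11.32 (median 11.11) in total-line WT, 11.68 to 12.004 (median 11.78) in total ChREBP KO, 10.95 to 11.40 (median 11.30) in ChREBPβ-line WT and 11.30 to 11.70 (median 11.44) in ChREBPβ KO. KO and WT of the total line did not overlap, and those of the ChREBPβ line did. The increase was 1.62-fold (log2 0.70 ± 0.07, SE, limma adjusted p 2.76e-10) by the brightest probe and 0.46 ± 0.16 (limma adjusted p 0.0184) and 0.53 ± 0.12 (limma adjusted p 0.000503) by the others. In ChREBPβ KO the differences were 0.22 ± 0.07 (limma adjusted p 0.0675), 0.28 ± 0.16 (limma adjusted p 0.477) and 0.30 ± 0.12 (limma adjusted p 0.231), in the same order. The first of these was called with normexp background correction (0.23, limma adjusted p 0.0302), with the scan day as a block (0.22, limma adjusted p 0.0257, chosen after seeing the data) and without ChREBPβ-line WT replicate 7 (0.25, limma adjusted p 0.037). The ChREBPβ KO effect minus the total ChREBP KO effect was -0.48 ± 0.09 (limma adjusted p 0.000278) by the brightest probe, and was not called by the others (-0.19 ± 0.23 and -0.24 ± 0.17). Over all 32 arrays Plekhg6 (r = 0.940), Olfr1368 (r = 0.933) and Ckb (r = 0.933) ran most like Atp2a2.

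The Atp2a2 probes disagreed between the lines. ChREBPβ-line WT differed from total-line WT by 0.12 ± 0.07 (log2, SE, limma adjusted p 0.166) for the brightest probe but by -0.95 ± 0.16 (limma adjusted p 1.96e-05) and -0.62 ± 0.12 (limma adjusted p 0.000114) for the others. The array files assign the brightest probe and the others to different RefSeq transcripts of the gene. As background, Atp2a2 is spliced to a muscle form and a widespread form, and the sources used here do not say which form each probe reads.

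Among total-line arrays the same 2 Atp2a2 probes followed muscle RNA, but not over all arrays. Fitted over all 32 arrays with the group means, their slopes on the muscle list mean were 0.05 ± 0.03 and 0.01 ± 0.03 (log2 per log2, SE). Neither was called (limma adjusted p 0.819 and 0.961), nor in any fit with 1 array left out. Slopes per line were chosen after seeing the data. In the total line the 2 probes rose with the muscle list mean by 0.48 ± 0.08 and 0.31 ± 0.07 (limma adjusted p 2.74e-05 and 0.0019). For the brightest probe the slope there was -0.05 ± 0.05 (limma adjusted p 0.926). In the ChREBPβ line the slopes, the brightest probe last, were 0.00399 ± 0.02, -0.02 ± 0.02 and -0.02 ± 0.01. With each array left out in turn, the total-line slopes of the 2 probes stayed called, with 0.00322 and 0.0151 as the highest limma adjusted p. With the muscle mean fitted in each line the rise in total ChREBP KO was 0.70 ± 0.07 for the brightest probe, 0.48 ± 0.11 and 0.54 ± 0.09 for the others, all called.

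Ryr2, the ryanodine receptor of cardiac type, was higher in both knockouts. It lay at 4.53 to 5.07 (median 4.75) in total-line WT, 6.24 to 7.18 (median 6.58) in total ChREBP KO, 4.72 to 5.38 (median 5.12) in ChREBPβ-line WT and 5.67 to 6.87 (median 6.31) in ChREBPβ KO. Neither KO group overlapped its WT, the KO groups overlapped, and so did the WT groups. It was well above background on 4 of 8 total-line WT, 7 of 8 ChREBPβ-line WT and all 16 KO arrays, and it entered through the groups other than total-line WT. In total ChREBP KO it rose 3.68-fold (log2 1.88 ± 0.14, SE), with all 4 wash batches between 1.71 and 2.07. The authors list Ryr2 as raised in brown fat of both knockouts, so this value is a description. Near background the size depended on the signal used, and was 1.09 (log2) with normexp background correction and 3.39 on the processed signal. In ChREBPβ KO it was 2.22-fold higher (1.15 ± 0.14), a value known before the gene was taken into the set and given here as a description without a test, as is the difference between the KO effects of -0.73 ± 0.19. Over the alternatives in processing and model these ran from 0.67 to 1.92 and from -1.46 to -0.42 (log2). The other probe gave 1.62 ± 0.13 and 1.07 ± 0.13 for these knockouts, but it entered through the KO groups alone and was well above background on 1 of 8 total-line WT and 5 of 8 ChREBPβ-line WT arrays, so it had to differ and adds no support.

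No slope of Ryr2 on muscle RNA passed the test. The slope on the muscle list mean was 0.01 ± 0.10 in the total line and -0.00662 ± 0.03 in the ChREBPβ line (log2 per log2, SE, limma adjusted p 0.999 and 0.987), and with the muscle mean as a covariate it was 1.88 ± 0.14 and 1.15 ± 0.14 higher in the knockouts. The WT groups differed by 0.37 ± 0.14 (limma adjusted p 0.0284), higher in the ChREBPβ line, a description since only ChREBPβ-line WT of these groups passed the detection filter. This was not called without total-line WT replicate 2 or ChREBPβ-line WT replicates 3, 4 or 5 (limma adjusted p 0.057 to 0.0586), and was 0.04 (limma adjusted p 0.905) with the endothelium list mean as a covariate, where that mean was 0.34 higher in ChREBPβ-line WT (exact permutation p 0.000466). Over all 32 arrays the gene listed as Lppr4 (r = 0.912), Slc40a1 (r = 0.910) and Wdr81 (r = 0.908) ran most like Ryr2.

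**Figure D3:**
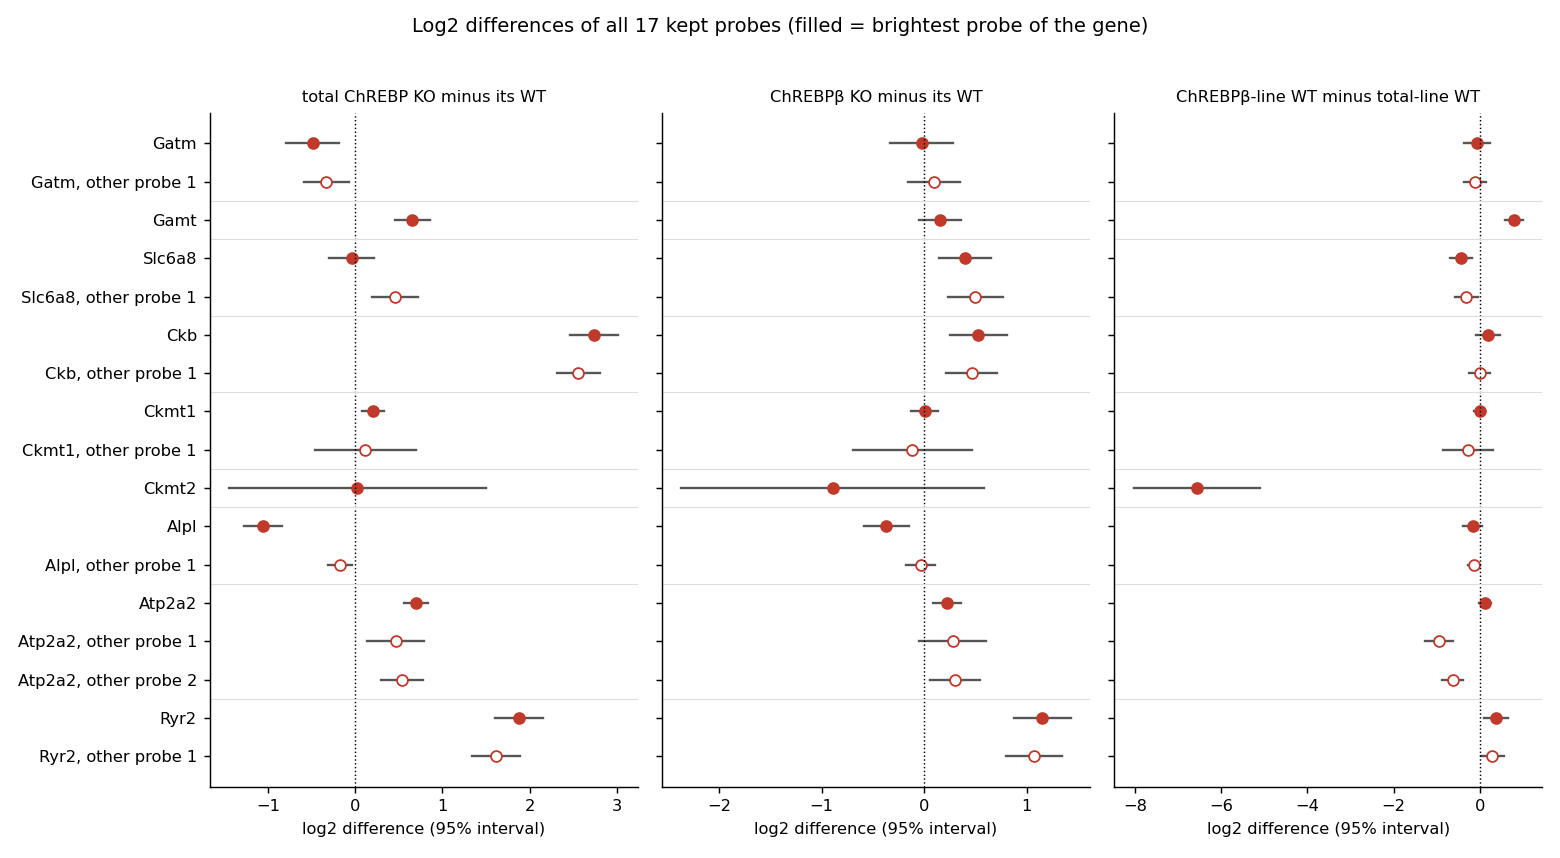
Log2 differences (x axes) with 95% intervals of all 17 kept probes for 3 comparisons; filled points are the brightest probe of a gene and open points its other probes, with other probe 1 and 2 of Atp2a2 in the order used in the text. In total ChREBP KO the probes of Slc6a8 and of Alpl differ in size, and between the WT groups the 2 other Atp2a2 probes lie below 0 while the brightest does not.

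Slopes on other tissue lists were tested in the same way for the 9 members. On a list of 8 slow or cardiac muscle genes, where 2.19% of all genes had a called slope, Slc6a8 (0.30 ± 0.07, log2 per log2, SE, limma adjusted p 0.0128) and Ckmt2 (2.40 ± 0.28, limma adjusted p 2.63e-07) were called by their brightest probes, as was the first other probe of Atp2a2 (0.45 ± 0.08, limma adjusted p 0.000307). The Slc6a8 slope was not called without total-line WT replicate 8 (0.24, limma adjusted p 0.236) or ChREBPβ-line WT replicate 5 (0.25, limma adjusted p 0.076), nor by the other Slc6a8 probe in any of the 32 fits with 1 array left out. On 7 liver genes, where 2.21% of all genes were called, and on 4 endothelial genes, where 0.135% were, limma called 0 members, with 0 and 1 at an unadjusted p under 0.05. Between total ChREBP KO and its WT the list means differed by -1.12 for liver (exact permutation p 0.142), -0.12 for endothelium (0.0468, adjusted 0.126), 0.11 for 3 white adipocyte genes (0.347) and 0.21 for 4 lymphocyte and blood genes (0.0143, adjusted 0.0551), with Benjamini-Hochberg adjustment over all 27 list tests run, not all of which are reported here. A list of 4 exocrine pancreas genes had 2 with a kept probe, and their mean fell by 1.54 in total ChREBP KO (exact permutation p 0.000155) through Cela1 (-3.10, limma adjusted p 1.38e-15), while Amy2a5 was not called and Prss2 and Cpa1 had no kept probe. Their part in the results was not tested. As background for the labels, 7 of 7 brown adipocyte markers, Ucp1 among them, were well above background on all arrays, and their mean was 0.35 lower in ChREBPβ-line WT than in total-line WT (exact permutation p 0.00186, adjusted 0.0101).

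Other genes of creatine and phosphate handling showed small changes. Of 12 listed genes 10 had a kept probe, and 5 were called in total ChREBP KO (44.1% of all genes were), 4 higher (Ak1, Slc25a4, Mat2a and Slc25a5) and 1 lower (the phosphate carrier Slc25a3), with a median log2 difference of 0.07. Ak1, an adenylate kinase that interconverts adenine nucleotides, was the only one past 1.5-fold, at 12.82 to 14.42 in total-line WT and 14.20 to 14.84 in total ChREBP KO (0.76 ± 0.19, SE, limma adjusted p 0.00132), with overlap. In ChREBPβ KO limma called 0 of the 10, where 2.7% of all genes were called, and 1 had an unadjusted p under 0.05. Between the WT groups 5 were called (38.9% of all genes were), all lower in the ChREBPβ line, among them the muscle creatine kinase Ckm (-6.27 ± 0.74, limma adjusted p 5.5e-08).

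Among 27 other genes of calcium stores and their regulators, 26 had a kept probe and 10 were called in total ChREBP KO, where 44.1% of all genes were, 5 higher and 5 lower, with a median log2 difference of -0.02. Itpr2, an inositol trisphosphate receptor that releases stored calcium, lay at 12.62 to 12.99 in total-line WT and 13.42 to 13.97 in total ChREBP KO without overlap (0.84 ± 0.07, SE, limma adjusted p 1.36e-11). Atp2b4, a plasma membrane calcium pump, lay at 5.28 to 5.82 and 5.96 to 6.77, also without overlap (0.74 ± 0.09, limma adjusted p 8.07e-08). Sln, the SERCA inhibitor sarcolipin, lay at 10.18 to 14.76 and 10.11 to 11.43 with overlap, and fell by 1.37 ± 0.44 (limma adjusted p 0.0117). On ChREBPβ-line arrays Sln was well above background on 3 of 8 WT and 2 of 8 KO arrays.

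In ChREBPβ KO limma called 0 of the 26 calcium store genes, where 2.7% of all genes were called, and 2 had an unadjusted p under 0.05. The KO effects differed for 4 of them, against 25.2% of all genes, with Itpr2 (-0.70 ± 0.10, limma adjusted p 2.01e-06) and Atp2b4 (-0.48 ± 0.13, limma adjusted p 0.00711) lower and Stim1, the store calcium sensor (0.46 ± 0.08, limma adjusted p 2.51e-05), and the sodium-calcium exchanger Slc8a1 (0.26 ± 0.08, limma adjusted p 0.02) higher in ChREBPβ KO relative to total ChREBP KO. Between the WT groups 19 were called, against 38.9% of all genes, 6 higher and 13 lower in the ChREBPβ line. The 26 include Sln, which could be kept only through the total-line groups, so this count is a description. Slopes on the muscle list mean within groups were called for 5 of the 26, against 0.673% of all genes. These were Atp2a1, Ryr1, Casq1, Trdn and Jph2, which are genes of the muscle calcium store.

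Promoter windows of 300 bases (250 before to 50 after the start; RefSeq, GRCm38.p6) were listed for 7 of the members, in 9 windows. The palindromic E-box CACGTG, the same on both strands, was in none of them, and it was in 7.15% of all 32851 windows; this says only that these letters are not in these windows.

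The mice and arrays limit these comparisons as follows. The probe of Mlxipl with the brightest signal lay at 15.98 to 16.33 in total-line WT and 13.49 to 13.91 in total ChREBP KO, and at 16.15 to 16.55 and 14.68 to 14.99 in the ChREBPβ line, so WT and KO did not overlap in either line. Of its 2 other probes, 1 overlapped between KO and WT in both lines and the other did not in either. Of all spots, 64.4% to 71.1% per array were well above background and none was saturated. Line, litters and dissection cannot be told apart in the comparison of the WT groups.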

How the data were processed

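Brown adipose tissue RNA was read on 1-colour Agilent arrays, with 8 in each group. The authors deposited scanner output of Agilent Feature Extraction 10.10.1.1 per array, in raw fluorescence intensity, and a table of log2 values that the authors had filtered and quantile normalized. The median intensity per spot was recomputed here as log2, then quantile normalized (limma 3.58.1, R 4.3.3), keeping spots found, positive and significant, and well above background on 26 or more of all 32 arrays or on 6 or more of a group's 8. Replicate spots of a probe were reduced to their median. Of 37306 probes, 37304 were shared with the deposited log2 table, with a mean absolute difference of 0.00298. Groups came from the sample labels.

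A linear model with 4 group means over all arrays (limma lmFit and eBayes) gave 2-sided p-values, Benjamini-Hochberg adjusted over all kept probes and called under 0.05; shares of all genes refer to the brightest probe of each gene name. The difference between KO effects was the ChREBPβ effect minus the total effect. A tissue list mean was the mean log2 value of its genes' brightest probes on an array, compared by an exact permutation test, and slopes on it were fitted with the group means. The scripts were tested on simulated data. Whether arrays were of separate mice is not stated per array, so p-values measure the spread between arrays. Precision rests on the number of arrays.

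The members and the gene lists were chosen with earlier results of these data known. Every member was named, with its other probes where they differed in call or direction. The other pathway genes were named where called at 1.5-fold or more in a KO comparison; the remaining names were given after their values were seen. Up to 3 genes most like a member were taken by Pearson correlation over 32 arrays, which includes the differences between groups. Over deviations from the group means the highest r of a member ran from 0.683 (Ryr2, with Dpysl2) to 0.990 (Ckmt2, with Myot). Alternatives were the processed signal or median signal scaled to the 75th percentile, normexp (offset 50), the deposited table, no filter, detection on all arrays, 4 wash batches, 15 slides and replicate numbers as blocks, array weights, own groups, moderation with trend, stricter calls, any probe, muscle and liver covariates, and each array left out. A block for the 2 scan days, slopes per line, an endothelium covariate and slopes without single arrays were chosen after seeing the data. Some tissue markers and the results that need them are not reported here.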

Additional observations from a re-analysis of the deposited data

Results flagged for a closer look

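In total-line WT, replicate 8 had the lowest Slc6a8 value, 11.12 against 11.70 for the next array. The gap was 0.661 of the group's range, above Dixon's 95% critical value for 8 samples. It was the only such value in 36 groups of 8 arrays, where chance gives about 1 in 20. The same array had the lowest muscle list mean of the total line, 13.58.

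The KO effects differed between the lines for 4 of the 8 members other than Ryr2. The difference of the ChREBPβ KO effect from the total ChREBP KO effect was -0.50 for Gamt, -2.21 for Ckb, 0.68 for Alpl and -0.48 for Atp2a2 (log2, by the interaction contrast of the limma fit), and -0.73 for Ryr2, given as a description. By their other probes the difference was -2.10 for Ckb (limma adjusted p 4.56e-11), 0.14 for Alpl (limma adjusted p 0.34), and -0.19 and -0.24 for Atp2a2 (limma adjusted p 0.614 and 0.344).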

How the results depend on the processing

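Under 22 alternatives and 32 fits with 1 array left out, no called value changed sign. The counts below are over all members. They include Ryr2, whose rise in both knockouts was known, and Ckmt2, which had to differ between the lines. Between the WT groups the call of Ryr2 is likewise a description. The count of 7 members called in total ChREBP KO ran from 5 (at least 1.5-fold) to 8 (any kept probe). Gatm lost its call with slides as a fixed block (limma adjusted p 0.185), and Ckmt1 with either 75th percentile scaling (0.0888 and 0.0679). The rise of Ryr2 there ran from 1.09 (log2, normexp) to 3.39 (processed signal). In ChREBPβ KO the count of 2 became 1 at adjusted p under 0.01, with at least 1.5-fold, on the processed signal, with slides as a fixed block, with array weights and with the endothelium covariate (Ryr2 remained in each), and 1 (Ckb) with detection on all arrays, which leaves out Ryr2. The difference between the KO effects fell from 5 to 3 members at 1.5-fold. The WT groups' count of 4 became 2 at 1.5-fold, with detection on all arrays, and with the muscle, muscle and liver, or endothelium covariate. Without single arrays the counts ran from 7 to 7 in total ChREBP KO, 1 to 4 in ChREBPβ KO (1 without ChREBPβ-line WT replicates 6 or 8 or ChREBPβ KO replicates 1 or 4, and 4 without ChREBPβ-line WT replicates 5 or 7), 5 to 6 for the difference and 3 to 5 between WT groups. Replicate numbers did not pair the arrays: correlations of same-numbered deviations were -0.30 to 0.08 in the total line, with 0 of 8 over 0.1, and -0.20 to 0.53 in the ChREBPβ line, with 6 of 8, and no array correlated best with its own number. With the replicate block, Atp2a2 was called in ChREBPβ KO (0.22, limma adjusted p 0.0323) and Slc6a8 in the difference (0.44, limma adjusted p 0.0424), and no call was lost. The causes were not tested.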
